A study of Mus musculus with 96 samples.

Results

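Small RNA was compared between cardiomyocytes (CMs) taken 28 days after myocardial infarction (MI) and CMs of hearts without MI. The comparison holds 8 of the 96 small RNA libraries of the series, 4 from day 28 (D28) and 4 from day 0 (D0), and all 1978 mature miRNAs that the tables list were followed in them. The mice were male C57Bl/6J animals, 12 to 14 weeks old when the infarct was induced, and no age at harvest is stated. At D28 they had lived with a permanently ligated left anterior descending artery, and the D0 mice were not operated, so that surgery, infarct and elapsed time cannot be told apart. CMs were enriched by repeated low-speed centrifugation after collagenase digestion of the heart, without sorting on a surface marker, and the RNA of 3 mice (2 if a sample was missing) was pooled for each library. Among the other libraries, the 4 CM libraries of day 14 (D14) and those of hematopoietic cells (HCs), of fibroblasts (FBs) and of endothelial cells (ECs) at D0 and D28 were used for comparison. In such bulk samples fewer cells of a type and less RNA per cell cannot be told apart.

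A miRNA is a short RNA that guides an Argonaute protein to messenger RNAs and represses them, and bases 2 to 8 from its 5′ end, the seed, do most of the pairing. Each hairpin precursor can release a 5p arm and a 3p arm, of which usually one is retained and the other degraded. Heart muscle is dominated by a few miRNAs: miR-1 and miR-133, which maintain muscle identity, and miR-208a, miR-208b and miR-499, which lie inside genes of myosin heavy chains. The infarcted heart is best known for changes of miR-21, linked to fibrosis, of miR-29, which represses collagens, of miR-210, induced by low oxygen, and of miR-15 and miR-17 families, linked to growth and the cell cycle.

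The miRNAs below carry the results: families that share a seed and moved together in the rises, the myosin-encoded miRNAs, and the families that lay lower at D28. Sequences are the mature sequences of RefSeq, written 5′ to 3′ with the seed in capitals. A RefSeq sequence was found for 413 of the 484 miRNAs tested (85.3%), and none is shown for the others.
The seed AAAGUGC, shared by miRNAs of the miR-17-92 and miR-106b-25 clusters, stood in the following rises:
miR-17-5p: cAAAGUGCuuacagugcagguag
miR-20a-5p: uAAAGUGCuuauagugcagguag
miR-93-5p: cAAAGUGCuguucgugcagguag
miR-106b-5p: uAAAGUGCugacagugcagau
The seed AGCAGCA marks the miR-15 and miR-16 family:
miR-15a-5p: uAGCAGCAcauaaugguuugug
miR-16-5p: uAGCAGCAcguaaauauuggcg
miR-195a-5p: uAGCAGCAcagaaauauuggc
miR-497a-5p: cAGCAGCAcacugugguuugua
The seed AGCACCA marks the miR-29 family:
miR-29a-3p: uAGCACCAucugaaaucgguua
miR-29b-3p: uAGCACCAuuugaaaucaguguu
miR-29c-3p: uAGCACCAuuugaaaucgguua
The myosin-encoded miRNAs share the first part of their seed:
miR-208a-3p: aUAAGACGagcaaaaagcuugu
miR-208b-3p: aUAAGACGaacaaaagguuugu
miR-499-5p: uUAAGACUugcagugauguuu
Single miRNAs among the largest rises were these:
miR-21a-5p: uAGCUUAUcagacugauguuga
miR-210-3p: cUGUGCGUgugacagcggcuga
miR-199a-5p: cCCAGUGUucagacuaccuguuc
miR-339-5p: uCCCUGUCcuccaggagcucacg
Among the falls, miRNAs with the seeds ACCCUGU and ACCCGUA were these:
miR-10a-5p: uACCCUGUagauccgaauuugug
miR-10b-5p: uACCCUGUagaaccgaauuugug
miR-99a-5p: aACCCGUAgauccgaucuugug
miR-99b-5p: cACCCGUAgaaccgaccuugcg
miR-100-5p: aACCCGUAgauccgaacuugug
The seeds CAGUGCA and UUUCAGU and 2 single miRNAs complete the falls:
miR-148a-3p: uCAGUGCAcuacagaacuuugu
miR-148b-3p: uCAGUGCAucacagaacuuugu
miR-30a-3p: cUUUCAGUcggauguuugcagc
miR-30e-3p: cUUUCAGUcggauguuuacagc
miR-181a-2-3p: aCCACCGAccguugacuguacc
miR-206-3p: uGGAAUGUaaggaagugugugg

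On GRCm38, the RefSeq entries place miR-17-5p at chr14:115043684-115043706 and miR-20a-5p at chr14:115044183-115044205, both on the plus strand in exons of the noncoding RNA Mir17hg. miR-106b-5p (chr5:138165787-138165807, minus strand) is intronic to Mcm7, a helicase subunit used in DNA replication. miR-208a-3p (chr14:54949072-54949093, minus strand) lies in an intron of Myh6, the myosin heavy chain of the adult mouse ventricle. miR-208b-3p (chr14:54975710-54975731, minus strand) lies in an intron of Myh7, its fetal counterpart, and miR-499-5p (chr2:155622893-155622913, plus strand) in an intron of Myh7b. miR-21a-5p (chr11:86584120-86584141, minus strand) falls in an exon of Vmp1, and miR-199a-5p (chr1:162217844-162217866, plus strand, the copy of Mir199a-2) in an exon of the antisense RNA Dnm3os. miR-10b-5p (chr2:74726074-74726096, plus strand) lies in an intron of Hoxd3 and Hoxd4, and miR-30e-3p (chr4:120772618-120772639, minus strand) in an intron of Nfyc. The host genes and their exons were read from GENCODE M21.

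The 8 libraries held 9074955 to 16052359 counts on mature miRNAs. Of the 1978 miRNAs, 966 had a count in at least 1 of the 8 libraries and 1012 had none, which at these depths does not show that they are absent. The D0 libraries detected 533 to 548 miRNAs and the D28 libraries 646 to 754. Reads without a match to a mature miRNA made up 29.0% to 42.0% at D0 and 36.3% to 44.5% at D28. After removal of low counts 484 miRNAs were tested. The remaining 482 with a count were too sparse, among them the miRNAs of many lists given below. Of the tested miRNAs 231 had at least 10 counts in each of the 8 libraries.

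A single miRNA filled most of each library, which bears on every value given here. miR-1a-3p, the main muscle miRNA, made up 65.7% ± 5.71 (SD, n = 4) of a D0 library's mature counts and 52.2% ± 2.37 (SD, n = 4) of those of a D28 library, with ranges of 60.2% to 70.7% and 50.1% to 55.4% that did not overlap. All miRNAs outside the 10 highest shared 10.0% to 13.7% of the counts at D0 and 22.7% to 30.2% at D28. TMM factors, which centre the bulk of miRNAs between libraries, were 0.289 to 0.357 at D0 and 0.670 to 1.31 at D28. The median log2 fold change of the 484 miRNAs was therefore 0.25 on the TMM scale and 1.99 when libraries were scaled by their total count alone. Below, CPM is the usual library-size scaling of the mature counts, without TMM factors. Log2 fold changes are on the TMM scale unless library size is named, and a direction is said to hold on both scales only where both pass an adjusted p of 0.05.

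Replicate 1 of each day stood apart from the other 3 libraries of its day. The D0 replicate 1 lay at a mean distance of 1.39 (root mean square log2 difference) from its own group and of 1.27 from the D28 libraries. The D28 replicate 1 had the lowest TMM factor of its day (0.670, against 1.23 to 1.31). On the TMM scale 227 of the 263 miRNAs called below lay closer to D0 in it than in the mean of the other 3. The labels give no reason for this. Without both libraries 299 miRNAs passed the threshold, 162 higher and 137 lower.

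The label of the cells was set against their markers. The sum of miR-1a-3p, miR-133a-3p, miR-208a-3p, miR-208b-3p and miR-499-5p was 603384 to 709043 CPM at D0 and 515493 to 563648 CPM at D28, against at most 134290.1 CPM in any D0 or D28 library of the other cell types. Nearly all of this sum was miR-1a-3p, at 602031 to 706983 CPM at D0. The other markers set CMs less apart at D0. miR-133a-3p averaged 391.5 CPM in CMs, 1143 CPM in ECs and 753 CPM in HCs. miR-208b-3p averaged 2.10 CPM in CMs and 14.9 CPM in HCs. Means in CMs and HCs were 1200 and 924 CPM for miR-499-5p and 117 and 89.5 CPM for miR-208a-3p. At D28 each of these averaged more in CMs than in any other cell type. Markers of other cells were present as well. The EC markers miR-126a-3p and miR-126a-5p summed to 4423 to 9789 CPM at D0 and to 15089 to 19577 CPM at D28 in CMs, and to 103768 to 224230.5 CPM in ECs. The 6 FB and mural markers summed to 22818 to 36374 CPM at D0 and 16162 to 21078 CPM at D28 in CMs, most of it miR-143-3p. In FBs they summed to 76163 to 104980 CPM. At D0 miR-143-3p averaged 29542 CPM in CMs and 25611 CPM in FBs, so it did not set FBs apart. miR-199a-3p averaged 36.7 CPM at D0 and 507 CPM at D28 in CMs, against 40770 and 47575 CPM in FBs. By library size 5 of the 6 markers were higher in CMs at D28 and 1 was lower. The 5 HC markers summed to 51.3 to 154 CPM at D0 and 131 to 278 CPM at D28 in CMs, and to 6921 to 12280 CPM in HCs. In CMs miR-223-3p was at 0 in 1 D0 library. The listed marker miR-155-5p averaged 56.3 CPM at D0 and 148 CPM at D28 in CMs. In HCs it averaged 163 and 128 CPM, so it did not set HCs apart at D28. The 3 erythroid markers summed to 0.779 to 1.90 CPM at D0 and 7.74 to 13.2 CPM at D28, and the liver marker miR-122-5p lay between 0.561 and 1.56 CPM in the 8 libraries. All these sums are in CPM, in which the median log2 fold change of the 484 tested miRNAs was 1.99. The part of these cells in the results below was not tested.

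On the TMM scale 143 of 484 were higher at D28 (29.5%) and 120 lower (24.8%), 263 in all (54.3%) at an adjusted p under 0.05 in edgeR's quasi-likelihood test. In 216 miRNAs (44.6%) the 4 D28 libraries did not overlap the 4 D0 libraries, which in a two-sided exact permutation test over 70 arrangements gives p = 0.0286, the smallest p it can give. Scaled by library size alone the split was 336 higher (69.4%) and 30 lower (6.20%). All 143 rises were called higher on both scales. Of the 120 falls, 30 were lower on both scales, 74 were not past the threshold by library size and 16 were called higher by it, so a fall outside those 30 is a fall relative to the bulk of miRNAs only. These shares are the background against which the counts of each family are to be read.

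**Figure D1:**
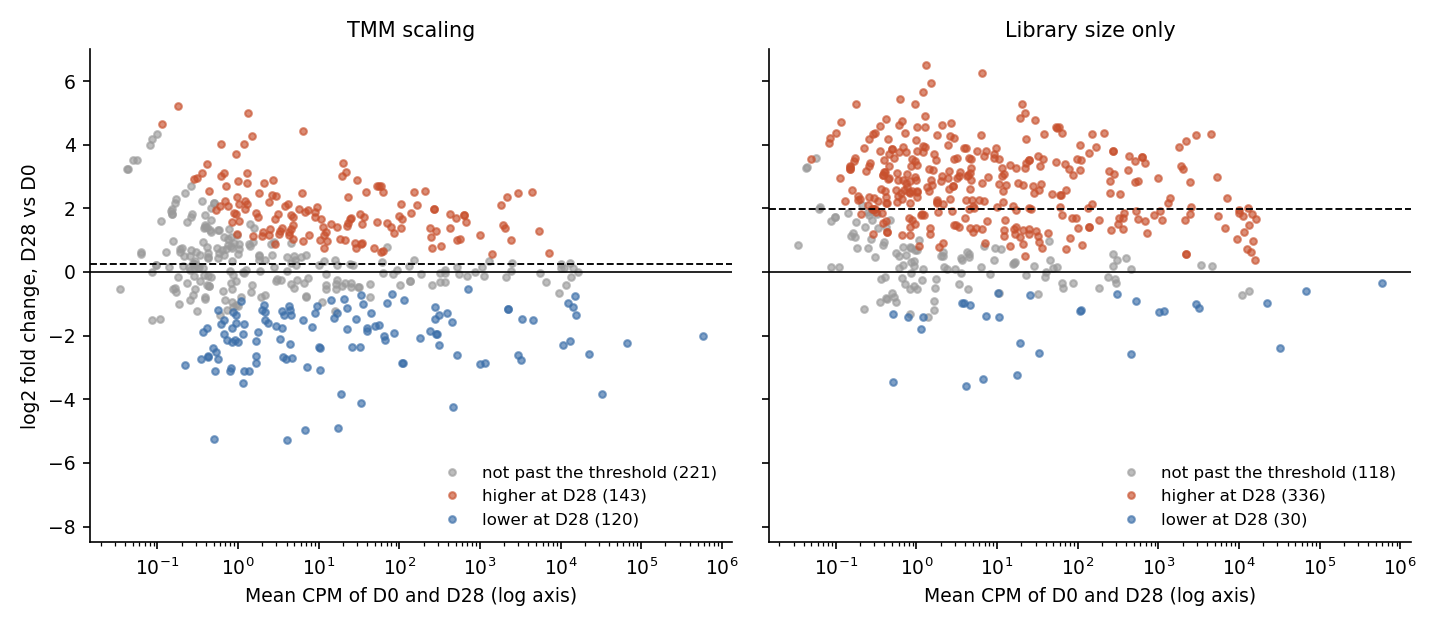
Log2 fold change of each of the 484 tested miRNAs (1 point each) from D0 to D28 against its mean CPM, with TMM scaling on the left and library size alone on the right. Colours give the call at an adjusted p under 0.05 and the dashed line is the median over all miRNAs: it lies at 0.25 on the left and at 1.99 on the right, where 336 miRNAs are called higher and 30 lower.

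The largest rises among miRNAs with at least 100 CPM were led by miR-17-5p, a member of a cluster that promotes proliferation. It measured 11.7, 2.34, 2.74 and 2.83 CPM in D0 replicates 1 to 4 and 39.0, 140.5, 144 and 131 CPM in D28 replicates 1 to 4. The groups did not overlap, and in both of them replicate 1 lay on the side of the other day. No overlap on the TMM scale was a condition for the 12 largest rises and 12 largest falls named here and below. For these miRNAs it was thus fixed by the choice and is no further evidence. The log2 fold change of miR-17-5p was 2.71 ± 0.60 (SE, adjusted p = 0.000668), and 4.54 by library size. Its seed partner miR-20a-5p measured 55.5, 8.49, 9.47 and 9.41 CPM at D0 and 137, 363, 378 and 375 CPM at D28, and miR-93-5p 27.9, 8.78, 6.48 and 7.50 CPM and 76.4, 253, 239 and 232 CPM. Both were higher in every D28 library than in any D0 library, by 2.12 ± 0.56 (SE, adjusted p = 0.00307) and 2.15 ± 0.45 (SE, adjusted p = 0.000405) on the log2 scale. miR-106b-5p, too low for that limit, went from 1.24, 1.13, 0.748 and 0.918 CPM to 12.7, 42.5, 58.4 and 44.5 CPM, a log2 fold change of 3.42 ± 0.63 (SE, adjusted p = 0.00015). Without D0 replicate 1 the changes of miR-17-5p, miR-20a-5p and miR-93-5p were 3.48, 3.18 and 2.78. All 6 tested miRNAs with the seed AAAGUGC rose, by 1.57 to 3.42.

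By cluster, 6 of the 7 tested members of miR-17-92 were higher and none lower, with a median log2 fold change of 1.54 beside 0.25 over all miRNAs, and by library size all 7 were higher. The exception, miR-18a-5p, had a log2 fold change of 1.15 ± 0.52 (SE, adjusted p = 0.0638) at 1.72 CPM at D28. The miR-106b-25 cluster divided between its members: miR-106b-5p, miR-93-5p and miR-93-3p were higher. Of these, miR-93-3p was listed at 0 in all 4 D0 libraries and had only 1, 10, 5 and 2 counts at D28. miR-25-3p and miR-106b-3p were lower on the TMM scale, by log2 fold changes of -1.36 ± 0.22 (SE, adjusted p = 3.68e-05) and -1.87 ± 0.29 (SE, adjusted p = 3.21e-05), and neither was past the threshold by library size (0.37 and -0.16).

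In the miR-15, miR-16 and miR-195 family, which holds back the cell cycle in heart muscle after birth, 9 of 12 tested members were higher and 1 lower, with a median of 1.88 (11 higher and 1 lower by library size). miR-16-5p, the most abundant, measured 109, 45.5, 40.7 and 43.8 CPM at D0 and 262, 580.5, 627 and 563 CPM at D28, with a log2 fold change of 1.29 ± 0.31 (SE, adjusted p = 0.00151). miR-15a-5p went from 3.52, 0.566, 0.436 and 0.918 CPM to 5.09, 32.9, 60.5 and 71.8 CPM and miR-497a-5p from 3.81, 0.212, 0.623 and 0.765 CPM to 9.95, 43.8, 48.6 and 47.7 CPM. Their log2 fold changes were 3.13 ± 0.66 (SE, adjusted p = 0.000474) and 3.00 ± 0.67 (SE, adjusted p = 0.000691), and 4.10 and 4.19 without D0 replicate 1. miR-15a-5p overlapped between the groups on the TMM scale, with D0 replicate 1 above D28 replicate 1. The 6 tested miRNAs with the seed AGCAGCA all rose, by 0.90 to 3.13. The member that fell was an opposite arm, miR-195a-3p, described with the arm ratios.

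miR-29, which represses collagens and other matrix proteins, was higher in 5 of its 6 tested members and lower in none, with a median log2 fold change of 1.80, and by library size all 6 were higher. miR-29a-3p measured 850.4, 296, 227 and 297 CPM at D0 and 3066, 9450.0, 12025 and 9468 CPM at D28. miR-29c-3p measured 567, 212, 161 and 202 CPM and 2146, 6446, 7593 and 6452 CPM. In these abundant members the lowest D28 library exceeded the highest D0 library. The log2 fold changes were 2.51 ± 0.44 (SE, adjusted p = 9.11e-05) and 2.47 ± 0.42 (SE, adjusted p = 8.40e-05). miR-29b-3p, at 21.3, 11.1, 19.2 and 26.0 CPM and 49.0, 219.8, 393 and 374 CPM, changed by 1.86 ± 0.54 (SE, adjusted p = 0.00564). These sequences differ in few bases, and how a read that fits more than 1 of them was counted is not given.

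miR-21a-5p, a miRNA of stressed and fibrotic hearts, measured 499.5, 153, 142 and 161 CPM at D0 and 2433, 4452, 4493 and 5241 CPM at D28. Every D28 library lay above every D0 library, and the log2 fold change was 2.35 ± 0.35 (SE, adjusted p = 2.52e-05). miR-210-3p, the miRNA induced by low oxygen, measured 10.8, 2.69, 2.43 and 2.75 CPM at D0 and 42.0, 107, 165 and 114 CPM at D28, a change of 2.70 ± 0.55 (SE, adjusted p = 0.000342), which was 3.42 without D0 replicate 1. miR-339-5p, from an intron of 3110082I17Rik, measured 12.8, 2.19, 1.68 and 0.994 CPM and 31.6, 116, 150.3 and 109 CPM, a change of 2.70 ± 0.69 (SE, adjusted p = 0.00224). Leaving out 1 library at a time, the log2 fold change of miR-339-5p ran from 2.37 to 3.97, the highest without D0 replicate 1, and without both replicates 1 it was 4.24.

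miR-199a-5p and miR-199b-5p, which are markers of FBs and mural cells, had the smallest p-values among the rises named here. miR-199a-5p measured 32.2, 13.3, 15.6 and 17.2 CPM at D0 and 161, 404, 495 and 553 CPM at D28, and miR-199b-5p 21.9, 9.84, 11.7 and 13.8 CPM and 123, 287, 340.5 and 406 CPM. Their log2 fold changes were 2.54 ± 0.32 (SE, adjusted p = 6.69e-06) and 2.52 ± 0.31 (SE, adjusted p = 6.69e-06), and no groups overlapped. Of the 6 FB and mural markers 4 were higher on the TMM scale (5 by library size), miR-145a-5p was not past the threshold (0.00 ± 0.27 (SE, adjusted p = 0.992)) and miR-143-3p was lower. Whether FBs in the preparation contributed was not tested. In FBs themselves the log2 fold changes of miR-199a-5p and miR-199b-5p were 0.42 and 0.40. In HCs their mean levels went from 848 and 699 CPM at D0 to 3623 and 2835 CPM at D28. In ECs the means went from 542 and 432 CPM to 826 and 689.5 CPM, with overlap between the days.

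**Figure D2:**
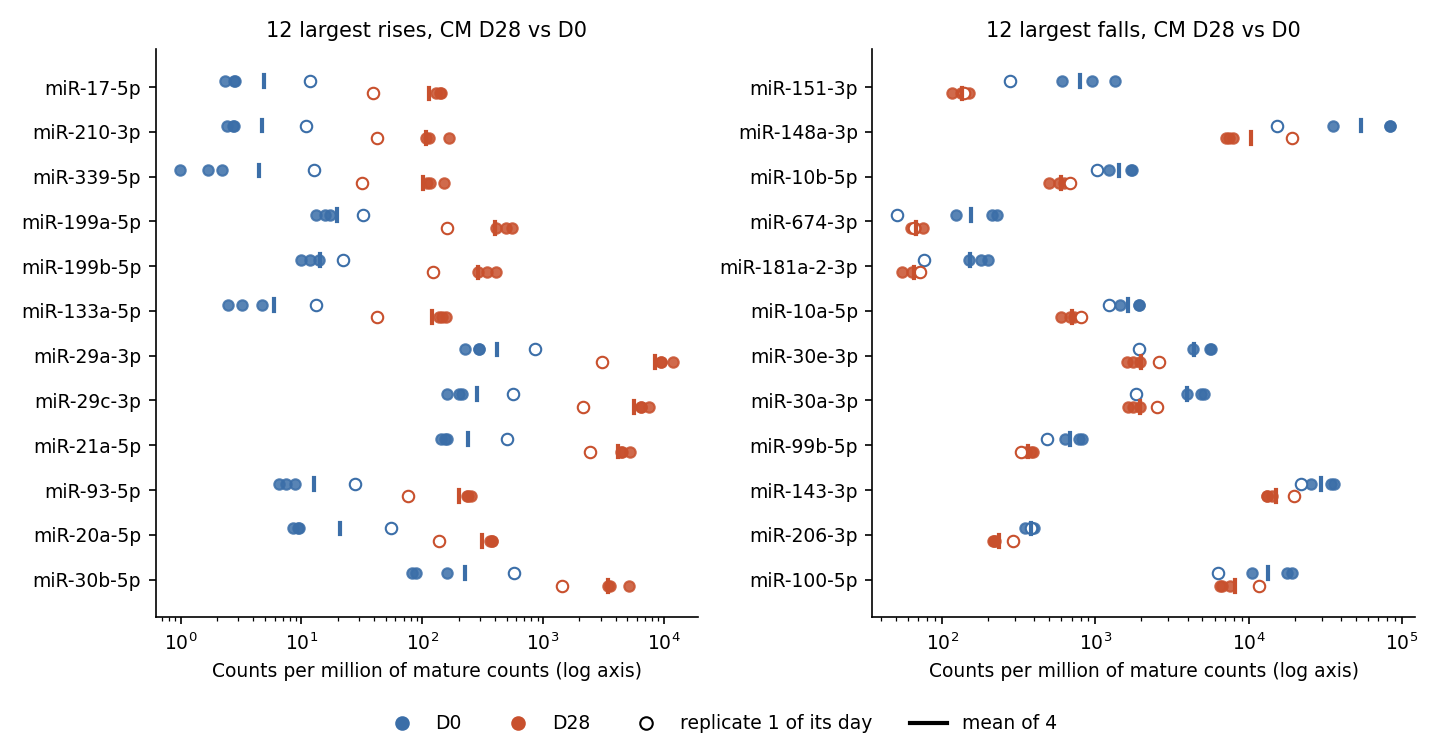
CPM in each library (log axis) of the 12 largest rises and 12 largest falls among miRNAs with at least 100 CPM in a group and no overlap on the TMM scale; open circles are replicate 1 of each day and vertical bars the means of 4. On the left the lowest D28 library lies above the highest D0 library for all 12 miRNAs, and on the right 5 miRNAs, such as miR-148a-3p and miR-30a-3p, overlap in CPM, with replicate 1 of D0 within or below the range of D28.

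The muscle miRNAs did not move as one. Of 14 tested, 8 were higher and 3 lower on the TMM scale, and 11 higher and 3 lower by library size. The median log2 fold change was 1.33 (3.11 by library size). miR-208a-3p measured 173, 78.7, 110.5 and 104 CPM at D0 and 459, 1367, 1895 and 1272 CPM at D28, miR-499-5p 1609, 912, 1054 and 1224 CPM and 7906, 9117, 11189.6 and 9782 CPM, and miR-208b-3p 2.67, 1.91, 1.99 and 1.84 CPM and 11.2, 25.1, 65.2 and 127 CPM. The 3 myosin-encoded miRNAs were higher in every D28 library, with log2 fold changes of 1.58 ± 0.31 (SE, adjusted p = 0.00025), 1.27 ± 0.21 (SE, adjusted p = 7.38e-05) and 2.88 ± 0.49 (SE, adjusted p = 8.40e-05). Of the 3, miR-208b-3p varied most among the D28 libraries, and without D28 replicate 4 its change was 2.17. miR-133a-3p, at 903, 295, 186 and 182 CPM and 1267, 3900.0, 5145 and 4473 CPM, changed by 1.39 ± 0.47 (SE, adjusted p = 0.0147), and its opposite arm miR-133a-5p, at 13.2, 4.74, 3.24 and 2.45 CPM and 42.0, 146, 158 and 137 CPM, by 2.51 ± 0.52 (SE, adjusted p = 0.000405). Without D0 replicate 1 these were 2.10 and 3.14.

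The 3 muscle miRNAs that fell were miR-1a-3p, miR-1b-5p and miR-206-3p, a relative of miR-1 best known from skeletal muscle. miR-1a-3p measured 706355, 706983, 602031 and 614418 CPM at D0 and 554005, 501084, 507199 and 523639 CPM at D28. Its fall was -2.01 ± 0.31 (SE, adjusted p = 3.17e-05) on the TMM scale but only -0.33 by library size (adjusted p = 0.0163). miR-206-3p measured 382, 383, 399.6 and 348 CPM at D0 and 291, 216, 222 and 217 CPM at D28, with log2 fold changes of -2.31 ± 0.36 (SE, adjusted p = 3.17e-05) and -0.68. miR-1b-5p measured 84586, 79809, 82352 and 74984 CPM and 65244, 46752, 51172 and 50732 CPM. Mir1b is annotated on the strand opposite to Mir1a-2, its counts were 9.33% to 13.7% of those of miR-1a-3p, and as the tables do not give strand the reads of both cannot be told apart. miR-206-3p resembles miR-1a-3p in sequence, and its counts were not separated from reads of the far more abundant miRNA.

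Among miRNAs with at least 100 CPM at D0 or D28 the largest fall was that of miR-151-3p, which measured 279, 609, 1339 and 949 CPM at D0 and 139, 149.9, 115 and 133 CPM at D28. The D28 libraries lay close together and all below the D0 libraries, of which replicate 1 was the lowest. The log2 fold change was -4.24 ± 0.61 (SE, adjusted p = 2.52e-05), and -2.56 by library size (adjusted p = 4.24e-05). miR-148a-3p, one of the 3 most abundant miRNAs of the 8 libraries, measured 15412, 35412, 84068 and 83398 CPM and 19226, 7156, 7858 and 7482 CPM. D0 replicate 1 lay below D28 replicate 1 here, so the groups overlapped in CPM and not on the TMM scale. The log2 fold changes were -3.85 ± 0.76 (SE, adjusted p = 0.00028) and -2.39 by library size (adjusted p = 0.000703), and the first was -4.87 without D28 replicate 1 and -5.16 without both replicates 1. In the miR-148 and miR-152 family 2 of 6 tested members fell and none rose on the TMM scale, whereas 3 were higher and 1 lower by library size. miR-148b-3p changed by -1.58 ± 0.27 (SE, adjusted p = 8.70e-05), against 0.10 by library size.

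miR-10a-5p and miR-10b-5p, which lie in the Hox gene clusters, fell together. miR-10a-5p measured 1234, 1459, 1925 and 1924 CPM at D0 and 806, 727, 599.7 and 679 CPM at D28, and miR-10b-5p 1028, 1225, 1697 and 1723 CPM and 687, 627, 499 and 576 CPM. The groups did not overlap on either scale. Log2 fold changes were -2.86 ± 0.50 (SE, adjusted p = 9.11e-05) and -2.89 ± 0.51 (SE, adjusted p = 9.37e-05), and -1.22 and -1.25 by library size, where both also passed the threshold. All 3 tested miRNAs with the seed ACCCGUA, which are known to repress the growth kinase mTOR, fell on the TMM scale. miR-99b-5p measured 483, 636, 785 and 815 CPM and 327, 393, 353 and 383 CPM, with changes of -2.61 ± 0.38 (SE, adjusted p = 2.52e-05) and -0.90 by library size (adjusted p = 0.00315). miR-100-5p, at 6336, 10529, 17812 and 19084 CPM and 11679.6, 7536, 6661 and 6507 CPM, changed by -2.29 ± 0.60 (SE, adjusted p = 0.00279), but by -0.73 with an adjusted p of 0.164 by library size, and by -2.97 without D28 replicate 1. The related miR-125b-5p went the other way, from 818, 583, 445 and 583 CPM to 2314, 5226, 5540.0 and 4096 CPM (1.02 ± 0.23 (SE, adjusted p = 0.000788)).

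miR-30 is among the most abundant families of heart muscle, and its members divided. Of 11 tested 3 were higher and 6 lower on the TMM scale, and 8 higher and 2 lower by library size, with a median of -0.73 on the TMM scale and 0.96 by library size. miR-30a-3p measured 1851, 3991, 4902 and 5113 CPM at D0 and 2540.0, 1952, 1633 and 1752 CPM at D28, and miR-30e-3p 1940.0, 4333, 5639 and 5671 CPM and 2616, 1960.0, 1608 and 1758 CPM. D0 replicate 1 lay within the D28 range for both in CPM. Their log2 fold changes were -2.62 ± 0.44 (SE, adjusted p = 7.38e-05) and -2.75 ± 0.47 (SE, adjusted p = 8.40e-05), and -1.01 and -1.15 by library size. They were the members lower on both scales. The largest of the 3 rises, miR-30b-5p, went from 574, 161, 82.2 and 88.0 CPM to 1443, 3580.0, 5184 and 3461 CPM, by 2.09 ± 0.55 (SE, adjusted p = 0.00279), which was 3.00 without D0 replicate 1. The other rises were the 3p arms miR-30d-3p and miR-30c-1-3p (0.87 and 0.74), and miR-30d-5p fell on the TMM scale (-0.97), so that no single arm of the family rose or fell throughout. miR-30a-5p, the highest of the family, measured 11634, 5974, 15196 and 7655 CPM and 18056, 21235, 20887 and 18644 CPM. It was called lower on the TMM scale (-0.74 ± 0.26 (SE, adjusted p = 0.019)) and higher by library size (0.96, adjusted p = 0.00119), and it lost the call when D0 replicate 3 (log2 fold change -0.44) or D28 replicate 2, 3 or 4 (-0.68, -0.68 and -0.65) was left out.

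miR-143-3p, a miRNA of smooth muscle, measured 22007, 25698, 36076 and 34386 CPM at D0 and 19698, 14135, 13105 and 13184 CPM at D28, with log2 fold changes of -2.58 ± 0.43 (SE, adjusted p = 6.69e-05) and -0.97 by library size. The groups did not overlap. miR-181a-2-3p measured 76.2, 149, 179.8 and 199 CPM and 71.6, 70.6, 63.6 and 54.7 CPM (-2.88 ± 0.38 (SE, adjusted p = 1.44e-05)), while the main arm miR-181a-5p was at -0.11 ± 0.21 (SE, adjusted p = 0.664). miR-674-3p measured 50.8, 124, 228 and 212 CPM and 65.5, 75.1, 62.7 and 66.9 CPM (-2.88 ± 0.50 (SE, adjusted p = 9.11e-05)), with D0 replicate 1 below all D28 libraries.

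The other miRNAs of highest level depended on the scale. miR-378a-3p, hosted by a gene of mitochondrial metabolism, measured 7030.0, 6887, 8493 and 9166 CPM at D0 and 24649.9, 27894, 22798 and 24938 CPM at D28, a non-overlapping rise in CPM. Its log2 fold change was -0.01 ± 0.20 (SE, adjusted p = 0.954) on the TMM scale and 1.67 (adjusted p = 3.65e-07) by library size. miR-378c and miR-378d, whose sequences resemble it and may share its reads, had changes of 0.12 and -0.16 on the TMM scale and 1.81 and 1.49 by library size. Without D28 replicate 1 miR-378d was called lower (-0.55, adjusted p = 0.0432). let-7f-5p, of a family linked to differentiation, measured 14366, 15304, 11272 and 13384 CPM and 14928, 19104, 18728 and 18004 CPM, and let-7a-5p 11388, 12484, 9510.0 and 10801 CPM and 13627, 18837, 18248 and 17841 CPM. Both were called lower on the TMM scale (-1.35 ± 0.22 (SE, adjusted p = 4.34e-05) and -1.11 ± 0.19 (SE, adjusted p = 9.11e-05)) and higher by library size (0.38 and 0.63, adjusted p = 0.0232 and 0.00167). Among the 20 tested members of the let-7 and miR-98 family 3 were higher and 5 lower on the TMM scale, where none of the 9 with the seed GAGGUAG was higher, and 17 were higher and none lower by library size (medians of -0.29 and 1.46).

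Other groups were read by their counts on the TMM scale beside the background of 29.5% higher and 24.8% lower, and by library size beside 69.4% and 6.20%. In the hypertrophy and remodelling group 6 of 10 tested members were higher and 1 lower on the TMM scale (8 and none by library size), among them miR-34a-5p, a target of p53, at 34.6, 11.8, 8.66 and 6.42 CPM and 101, 182, 253 and 192 CPM (1.77 ± 0.38 (SE, adjusted p = 0.000477), and 2.41 without D0 replicate 1). miR-221-3p and miR-222-3p, which act on cell cycle inhibitors, were higher, by 1.38 ± 0.27 (SE, adjusted p = 0.000234) and 1.45 ± 0.29 (SE, adjusted p = 0.000324), and miR-221-5p was lower (-1.80 ± 0.36 (SE, adjusted p = 0.00034)). Of 8 tested inflammation miRNAs the arms of miR-21a were higher on the TMM scale and 7 were higher by library size. The arm miR-21a-3p had only 0, 1, 0 and 1 counts at D0 and 3, 14, 13 and 9 at D28. miR-146a-5p and miR-155-5p were at 0.38 ± 0.24 (SE, adjusted p = 0.188) and -0.40 ± 0.23 (SE, adjusted p = 0.149) on the first scale, and at 2.13 (adjusted p = 3.14e-06) and 1.39 (adjusted p = 0.000861) on the second. The miR-23, miR-27 and miR-24 clusters had 2 higher and 4 lower of 10, and 6 and 1 by library size. The miR-26 family had 2 higher and none lower of 4 (4 and none by library size), and the miR-130 and miR-301 family 2 higher and none lower of 7 (5 and none). The miR-181 family had 3 higher and 1 lower of 9, and 8 and 1 by library size. In the imprinted Dlk1-Dio3 cluster, one of the longest clusters of miRNAs, 96 members are listed and 43 were tested, of which 5 were higher and 4 lower on the TMM scale and 30 higher and none lower by library size.

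Among markers of other cells, miR-126a-5p of ECs was higher (1.78 ± 0.44 (SE, adjusted p = 0.00181), and 2.47 without D0 replicate 1), whereas miR-126a-3p, at 9573, 4371, 6969 and 6369 CPM and 14672, 17087, 15938 and 18114 CPM, was not past the threshold (-0.42 ± 0.24 (SE, adjusted p = 0.144)) and was higher by library size (1.27). miR-126b-3p is annotated opposite to Mir126a, and its counts were 100% to 100.1% of those of miR-126a-5p. Of the 5 HC markers 3 were higher (4 by library size), miR-142a-3p, miR-142a-5p and miR-223-3p, at means of 7.70, 5.02 and 1.87 CPM at D28. Of the 3 erythroid markers 2 were higher (all 3 by library size), miR-144-3p and miR-144-5p, and miR-451a was at 0.90 ± 0.44 (SE, adjusted p = 0.0902). Both calls rest on few counts. miR-144-3p had 1, 0, 1 and 0 counts at D0 and 10, 37, 40 and 22 at D28. miR-144-5p had 2, 2, 0 and 1 counts and 12, 34, 14 and 10. miR-122-5p was lower on the TMM scale only (-1.59 ± 0.46 (SE, adjusted p = 0.00578), 0.19 by library size).

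**Figure D3:**
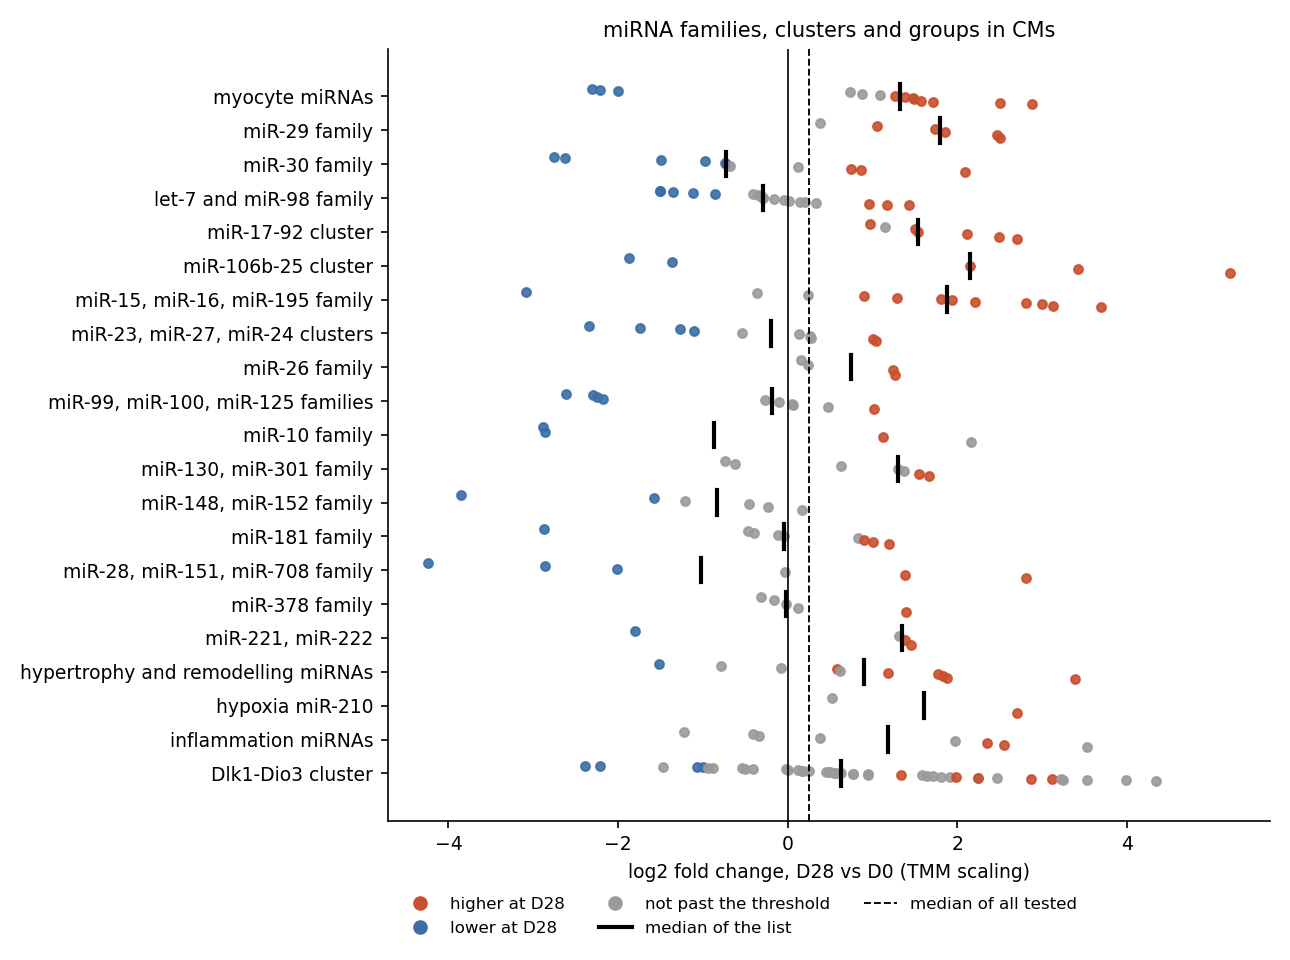
Log2 fold change from D0 to D28 (TMM scale) of the tested members of each family, cluster or group (1 point per miRNA, coloured by its call), with the median of the list as a black bar and the median of all miRNAs (0.25) as a dashed line. The miR-29, miR-17-92 and miR-15, miR-16 and miR-195 lists have medians of 1.80, 1.54 and 1.88; with members at 0 in all D0 libraries set at a lower bound (3 counts over the 4 D0 libraries) the medians of the miR-106b-25, inflammation and Dlk1-Dio3 lists change from 2.15, 1.18 and 0.63 to 0.97, 0.02 and 0.45.

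The ratio of the 5p to the 3p arm of a hairpin is taken within a library and does not depend on how libraries are scaled. Of 99 hairpins tested with limma, 33 had a higher log2 ratio at D28 (33.3%) and 34 a lower one (34.3%), and in 35 of these 67 both arms averaged 50 counts or more. In 14 the more abundant arm changed. In 23 hairpins the arms were themselves called in opposite directions on the TMM scale.

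miR-151 had the largest change of the well-covered hairpins. Its 5p arm had 277, 207, 227 and 366 counts in the D0 libraries and 1052, 2647, 2647 and 2367 in the D28 libraries, and its 3p arm 2927, 8604, 21500 and 12404 and 1880, 2232, 1222 and 1211. The 3p arm thus held most of the counts in all D0 libraries, and the 5p arm was the larger in 3 of 4 D28 libraries. The log2 ratio went from -5.10 ± 1.30 to 0.37 ± 0.89 (SD, n = 4), a difference of 5.48 ± 0.76 (SE, adjusted p = 1.47e-05). miR-106b moved from -5.31 ± 0.66 to -0.11 ± 0.86 (difference 5.20 ± 0.80 (SE, adjusted p = 2.56e-05)), with 13, 16, 12 and 12 and 172, 633, 618 and 404 counts on the 5p arm. Its 3p arm had 320, 516, 790 and 659 and 450, 543, 445 and 342 counts, which overlapped between the days.

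miR-195a crossed from a 3p excess in 3 of 4 D0 libraries to a 5p excess in all D28 libraries. Its log2 ratio went from -0.89 ± 1.30 to 3.02 ± 0.68, a difference of 3.91 ± 0.69 (SE, adjusted p = 9.00e-05). The arms in D0 had 122, 79, 100 and 83 counts (5p) and 64, 142, 368 and 284 counts (3p), and in D28 345, 860, 555 and 523 and 82, 91, 64 and 41. In miR-143, miR-361 and miR-30b the same arm stayed the larger. miR-143 went from -11.04 ± 1.53 to -6.69 ± 0.96 (4.36 ± 0.83 (SE, adjusted p = 0.000154)), miR-361 from -5.74 ± 1.45 to -1.82 ± 1.18 (3.91 ± 0.80 (SE, adjusted p = 0.000284)) and miR-30b from 2.83 ± 1.49 to 6.15 ± 0.89 (3.31 ± 0.72 (SE, adjusted p = 0.000517)). D0 replicate 1 lay nearest to D28 in all 6 hairpins and D28 replicate 1 nearest to D0, and only miR-30b overlapped, with D0 replicate 1 above D28 replicate 1. Without D0 replicate 1 the differences of miR-143, miR-361, miR-195a and miR-30b were 5.09, 4.57, 4.51 and 4.04, without D28 replicate 1 that of miR-361 was 4.50, and without both the 6 differences were 4.47 to 6.45. The 6 were chosen for the size of their change, and in the whole set rises and falls of the ratio were about equal in number.

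**Figure D4:**
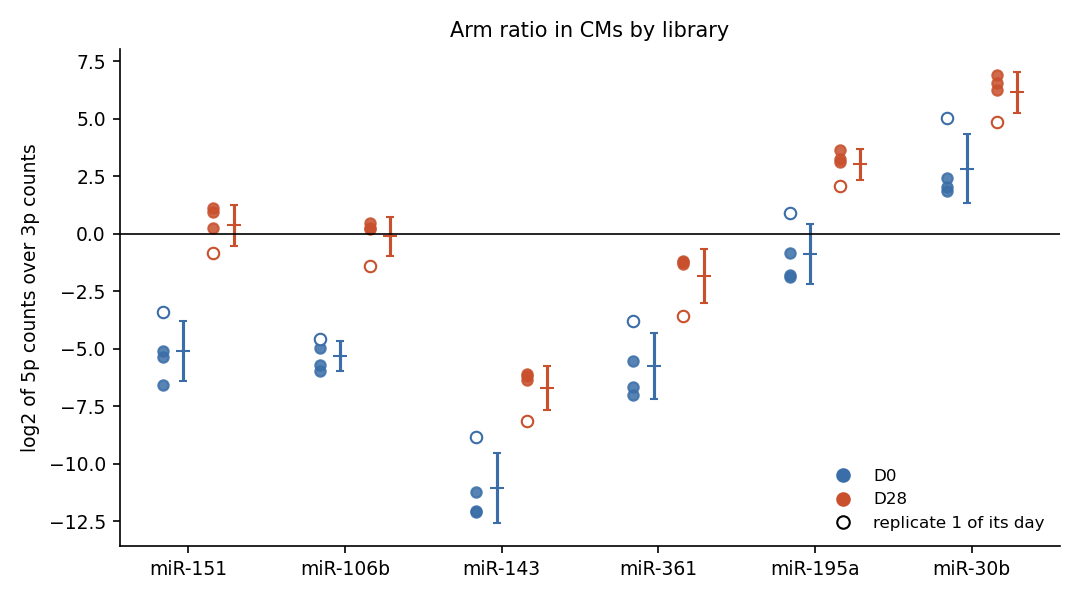
Log2 ratio of 5p to 3p counts (pseudocount 0.5) in each of the 4 D0 and 4 D28 libraries for the 6 named hairpins, with open circles for replicate 1 of each day and bars for the mean ± SD. The ratio is higher at D28 in each hairpin; for miR-151 the means are -5.10 at D0 and 0.37 at D28.

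D28 was also set against D14, the time point before it. The libraries of the other days entered the comparison with D0 through the choice of miRNAs tested, the TMM factors and the estimate of spread, and with D0 and D28 fitted alone 336 miRNAs were tested and 214 called. The D14 libraries had 3327351 to 14938730 mature counts and 48.8% to 83.0% of their reads unmatched. On the TMM scale 39 miRNAs (8.06%) were higher and 38 (7.85%) lower at D28 than at D14. By library size 3 were higher and 142 lower, and with RLE factors 30 and 46. Without D28 replicate 1, which lies towards D0, 11 were higher and 20 lower. Of the 263 miRNAs that differed from D0, 31 also differed from D14: 6 rises lay lower and 5 higher than D14, and 14 falls lay higher and 6 lower.

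Among miRNAs with at least 100 CPM at D14 or D28 and, by choice, no overlap of these days on the TMM scale, miR-29b-3p differed most. It measured 2238, 3188, 1890.0 and 1330.0 CPM in the D14 libraries and 49.0, 219.8, 393 and 374 CPM at D28, beside 21.3, 11.1, 19.2 and 26.0 CPM at D0. The change from D14 was -2.36 ± 0.55 (SE, adjusted p = 0.00759), without overlap, and it stayed between -2.60 and -2.06 when single libraries were left out. miR-29a-3p and miR-29c-3p did not pass the threshold between D14 and D28 (-0.34 ± 0.41 (SE, adjusted p = 0.607) and -0.49 ± 0.40 (SE, adjusted p = 0.429)). miR-218-5p, from an intron of Slit3, measured 434, 713, 606 and 270.4 CPM at D14 and 80.7, 181, 148 and 105 CPM at D28 (-1.15 ± 0.31 (SE, adjusted p = 0.0131)). miR-374b-5p measured 377, 709, 433 and 324 CPM and 64.8, 131, 157 and 134 CPM (-1.12 ± 0.34 (SE, adjusted p = 0.0249)). Both lost the call without D14 replicate 2, with log2 fold changes of -0.91 and -0.80, and miR-374b-5p also without D28 replicate 1 (-1.06) or 2 (-1.09).

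Higher at D28 than at D14 was miR-1a-3p, at 350668, 291894, 371319 and 398591 CPM at D14 and 554005, 501084, 507199 and 523639 CPM at D28. Its log2 fold change was 1.50 ± 0.30 (SE, adjusted p = 0.00539) and 0.56 by library size (adjusted p = 0.00247). The D28 level thus lay between those of D14 and D0 in CPM, without overlap on either side. miR-1b-5p followed it (1.35 ± 0.33 (SE, adjusted p = 0.0106)), and lost the call without D28 replicate 1 (0.90, adjusted p = 0.0902). miR-30c-2-3p measured 273, 218, 227 and 244 CPM and 294, 289, 328 and 274 CPM (1.22 ± 0.28 (SE, adjusted p = 0.00759)), and miR-30a-3p 1772, 1522, 1404 and 1757 CPM and 2540.0, 1952, 1633 and 1752 CPM (1.28 ± 0.42 (SE, adjusted p = 0.0399)). Neither passed the threshold by library size, and miR-30a-3p lost the call when any D14 library or D28 replicate 1 was left out.

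The change in CMs was tested against the mean change of ECs, FBs and HCs from D0 to D28 in 1 fit over all 96 libraries. The paper left out a small RNA library of EC D28, of HC D0 and of FB D0 as outliers, and all were kept here. Of 712 miRNAs 170 changed more upward in CMs (23.9%) and 112 more downward (15.7%). The methods state that the cell types of a day came from the same animals, which this fit does not use, so the libraries are not fully independent. By library size the numbers were 357 and 39, with RLE factors 139 and 135, and with DESeq2 140 and 142. Fold changes here carry the TMM factors of all 96 libraries and differ somewhat from those above.

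miR-208a-3p rose in CMs by 1.86 on the log2 scale while its fitted change was -1.62 in HCs, -1.68 in FBs and -2.17 in ECs. The difference was 3.68 ± 0.52 (SE, adjusted p = 7.05e-09). Its mean level was 117 CPM at D0 and 1248 CPM at D28 in CMs, and at D0 and D28 89.5 and 35.3 CPM in HCs. For miR-499-5p the fitted change was 1.51 in CMs against -1.76 in HCs, -1.50 in FBs and -2.48 in ECs, and the difference was 3.42 ± 0.45 (SE, adjusted p = 9.73e-10). Both are made in heart muscle, and the summed CM markers were 75958 to 134290.1 CPM at D0 and 21002.5 to 80702 CPM at D28 in ECs, and 85777 to 132342 CPM and 26274 to 42691 CPM in HCs. The part of CM RNA in those libraries was not tested. miR-29a-3p and miR-29b-3p differed by 3.43 ± 0.43 (SE, adjusted p = 4.29e-10) and 3.45 ± 0.63 (SE, adjusted p = 3.92e-06), with changes in CMs of 2.78 and 2.13 in HCs of 0.12 and -0.17, in FBs of -0.43 and -1.03, and in ECs of -1.62 and -2.74.

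The falls of miR-151-3p, miR-148a-3p, miR-10b-5p and miR-10a-5p in CMs also differed from the other cell types. For miR-151-3p the fitted change was -3.98 in CMs against -0.67 in HCs, -0.14 in FBs and 1.64 in ECs, and the difference was -4.26 ± 0.47 (SE, adjusted p = 1.58e-11). For miR-148a-3p the changes in the same order were -3.65, 0.03, 0.63 and 0.09, a difference of -3.90 ± 0.50 (SE, adjusted p = 5.35e-10) that was -4.77 without D28 replicate 1 of CMs. miR-10b-5p and miR-10a-5p differed by -3.08 ± 0.39 (SE, adjusted p = 4.29e-10) and -3.07 ± 0.38 (SE, adjusted p = 4.16e-10), with changes in CMs of -2.67 and -2.65. By library size the 4 differences were -2.83, -2.59, -1.59 and -1.57, all past the threshold.

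**Figure D5:**
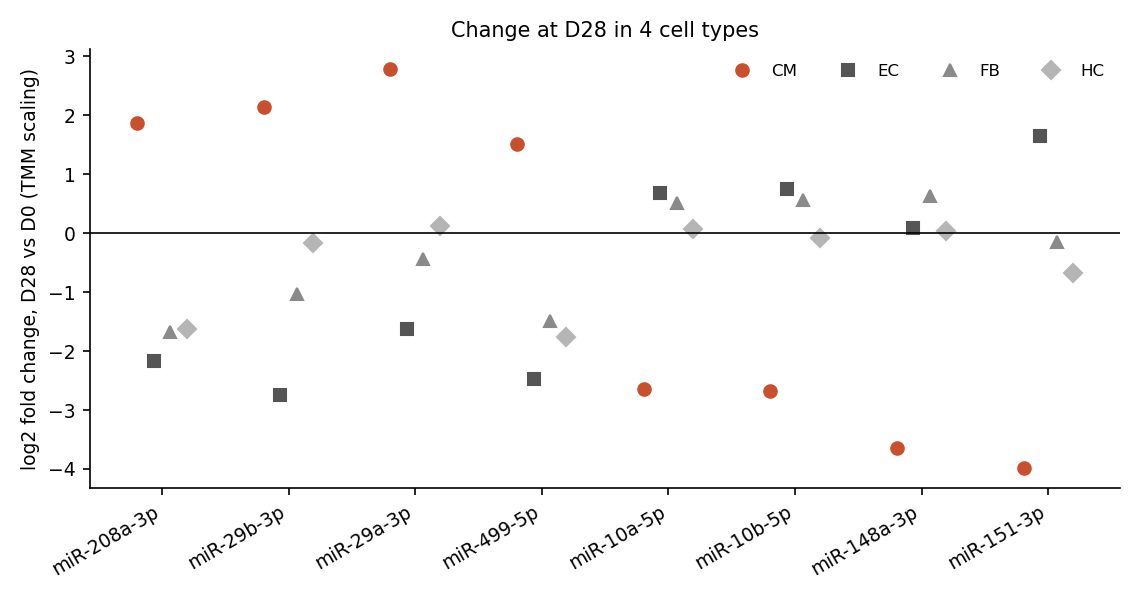
Fitted log2 fold change from D0 to D28 (TMM scale over 96 libraries) in CMs, ECs, FBs and HCs for the 4 miRNAs furthest above and the 4 furthest below the other cell types in CMs among those with at least 100 CPM; each point rests on 4 libraries per day. For miR-208a-3p the CM value is 1.86 and the others -1.62 to -2.17, and for miR-151-3p the CM value is -3.98 and the others -0.67 to 1.64.

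Features of the mature sequences were compared with the log2 fold change over the 413 miRNAs with a RefSeq sequence, as a description across miRNAs that share the same 8 libraries. Spearman's rho was -0.18 with the GC content, 0.21 with the share of A and 0.04 with the length. Of the 83 miRNAs that end in A 38.6% were higher and 15.7% lower, with a median log2 fold change of 0.88. Of the 88 that end in G 27.3% were higher and 36.4% lower, with a median of 0.13. For the end C the shares were 27.3% and 27.3%, and for the end U 31.2% and 19.5%. By first base they ran from 22.2% to 37.8% higher and from 17.1% to 27.8% lower. Over all 484 tested miRNAs, of which only the 413 with a sequence entered the shares above, 29.5% were higher and 24.8% lower. Of 49 seeds shared by at least 2 tested miRNAs, 14 had at least 2 called members that all rose, 8 had at least 2 called members that all fell, and 4 held both a rise and a fall. miRNAs of 1 seed often come from the same cluster or differ in few bases, and are not independent of each other.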

How the data were processed

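Small RNA libraries were made with the NEBNext small RNA kit and selected by size on a gel. Those of CMs were made from 500 ng of RNA in 14 PCR cycles. For ECs, FBs and HCs the methods give less RNA and more cycles. The authors deposited 192 tables of raw counts, without normalization, for the mature sequences and hairpins of miRBase. They used the nf-core small RNA pipeline, with Trim Galore, Bowtie2 and SAMtools named in their notes, and removed reads under 18 nt. The methods name a release of miRBase, and whether the 1978 mature entries listed are those of that release was not settled. Tool versions and the rule for reads that fit several sequences are not given in the sources used here, and 77 mature miRNAs had the same counts as another entry. The lower bound used for miRNAs at 0 covers counting error only, as reads carry no molecular identifiers, whereas SDs and SEs hold the spread between libraries. The line of unmatched reads named no miRNA and was left out of library sizes and tests. The study's total RNA data were not used here.

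Groups were taken from the labels. The deposited counts of the 24 CM libraries were fitted together with edgeR 4.0.16 in R 4.3.3 (TMM factors, filterByExpr by day, quasi-likelihood test, Benjamini-Hochberg adjustment, threshold 0.05), for D28 against D0 and D28 against D14. The CM change was tested against the mean change of the other cell types on all 96 libraries. For hairpins whose arms each averaged 10 counts or more, log2((5p + 0.5)/(3p + 0.5)) was tested with limma 3.58.1. Distances between libraries used log2 CPM on the TMM scale with a prior count of 2. Procedures were tested on simulated data. Python 3.11.15 with pandas 2.3.3, numpy 2.4.6 and matplotlib 3.10.9 served for tables and plots.

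The miRNAs, lists and tests were chosen with earlier results of these data known. Named were the 12 largest rises and 12 largest falls that passed the threshold, averaged 100 CPM or more at D0 or D28 and did not overlap on the TMM scale, the 10 miRNAs of highest level, list members of largest change or level, the 6 largest changes of the arm ratio with at least 50 counts on each arm, and up to 4 each way against D14 and against the other cell types. miR-25-3p, miR-106b-3p, miR-18a-5p, miR-93-3p, miR-30d-3p, miR-30d-5p, miR-30c-1-3p and miR-125b-5p were named after their values were seen. The alternatives were library size or RLE factors in place of TMM, DESeq2 1.42.0, no filter, the compared groups alone, the replicate number as a block, each library left out, a pseudocount of 5 and a minimum of 50 counts per arm. Leaving out replicate 1 of both days, and a block of same-numbered libraries of a day across cell types, were added after the data were seen.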

Additional observations from a re-analysis of the deposited data

Results flagged for a closer look

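In each group of 4 libraries the gap between an extreme library and its neighbour was divided by the range of the group, and a value above Dixon's limit for 4 was recorded, which chance does in about 1 group in 20. The groups read the same libraries for many values, so they are not independent and their number cannot be set against that rate. Levels of miRNAs were read as log2 CPM on the TMM scale. Of 84 groups 30 had such a library. In 29 of them it was replicate 1 of its day, and the flagged level or ratio lay towards the other day.

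On the TMM scale D28 replicate 1 was lower than the rest for miR-17-5p (0.897), miR-133a-5p (0.832) and miR-93-5p (0.957). It was higher for miR-148a-3p (0.921), miR-10a-5p (0.833), miR-30e-3p (0.856), miR-30a-3p (0.869), miR-143-3p (0.963), miR-206-3p (0.932), miR-100-5p (0.928), miR-1a-3p (0.861), miR-1b-5p (0.856), let-7f-5p (0.959), miR-30a-5p (0.848) and let-7a-5p (0.975). In CPM, without TMM factors, this library was instead the lowest of its day for let-7f-5p, let-7a-5p and miR-30a-5p. Its arm ratio was lower for miR-106b (0.864), miR-143 (0.858) and miR-361 (0.953). The same library had the lowest share of unmatched reads (0.889) and the lowest TMM factor (0.875) of its day.

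At D0 replicate 1 was higher than the rest for miR-17-5p (0.937), miR-210-3p (0.869), miR-199a-5p (0.901), miR-21a-5p (0.863) and miR-20a-5p (0.928), and lower for miR-181a-2-3p (0.892), miR-30e-3p (0.843) and miR-30a-3p (0.885). It also detected the most miRNAs (0.867). Replicate 4 of D0 had the highest share of unmatched reads (0.840).

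The change in CMs differed from the mean change of ECs, FBs and HCs, by the test of the difference itself, for miR-208a-3p (3.68), miR-29b-3p (3.45), miR-29a-3p (3.43), miR-499-5p (3.42), miR-151-3p (-4.26), miR-148a-3p (-3.90), miR-10b-5p (-3.08) and miR-10a-5p (-3.07), all as log2 differences on the TMM scale.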

How the results depend on the processing

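The number of miRNAs that differed between D28 and D0 (263) was 214 to 366 under the alternatives, with 366 by library size and 214 of 336 tested when the compared groups were fitted alone, and 233 to 283 when single libraries were left out. Against D14 the 77 miRNAs became 145 by library size (3 higher and 142 lower) and 31 to 74 when single libraries were left out, the lowest without D28 replicate 1. Against the other cell types the count of 282 ran from 249 to 396, and the 67 hairpins with a changed arm ratio from 47 of 62 tested (a minimum of 50 counts per arm) to 75 (both replicates 1 left out). Some miRNAs of high level changed direction. By library size the log2 fold changes were 1.67 for miR-378a-3p, 0.38 for let-7f-5p, 0.96 for miR-30a-5p, 0.63 for let-7a-5p and 1.49 for miR-378d. Without the filter they were 0.26 for miR-378a-3p and 0.11 for miR-378d. miR-378c was -0.08 with the compared groups alone and -0.20 with both replicates 1 left out. With single libraries left out miR-378a-3p ran from -0.32 to 0.10 and miR-378c from -0.16 to 0.23. The cause was not tested. Of the 24 largest rises and falls, miR-100-5p lost its call by library size, and the others kept their direction and call under each alternative.

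Same-numbered libraries of D0 and D28 did not deviate together (correlations of -0.45, -0.03, -0.16 and -0.29), and no D0 library correlated best with its own number. With the replicate block 268 miRNAs differed from D0, 79 from D14 and 282 from the other cell types, and 64 hairpins changed their ratio. Libraries of the cell types with the same number on the same day did not deviate together with those of CMs (correlations of -0.18 to 0.09 at D0 and -0.10 to 0.11 at D28), and with them as a block 281 miRNAs differed from the other cell types, 172 upward and 109 downward. Limits come from 4 libraries a day, from replicate 1 of each day, from the scaling between days and from low counts. Of the 484 tested miRNAs only 231 had at least 10 counts in each of the 8 libraries of D0 and D28. Fits with a library left out used the same miRNAs.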
